A study of Homo sapiens with 4 samples.

Results

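The genes described here are 10 genes of thyroid lineage and hormone synthesis, PAX8, NKX2-1, FOXE1, HHEX, GLIS3, TG, TSHR, DIO2, DUOX1, and DUOX2, among the 20372 genes of the deposited table. They were chosen by name for their roles in the thyroid, as the rows whose gene symbol equals one of these names. No measured value entered the rule, but earlier results of these data were known when they were chosen. The libraries were made from TPC1 cells, an established line from a human papillary thyroid carcinoma that carries the CCDC6-RET rearrangement. The cells were grown in DMEM with 10% FBS and treated with BLU6864, a small molecule inhibitor of the RET kinase, for 6 h (2 libraries) or 24 h (2 libraries). The labels give a dose of 100 µM and single-end reads of 50 bp, whereas the methods of the study give 100 nM and paired-end reads of 100 cycles. In their titles the 24 h libraries carry the remark that they are a re-analysis. Vehicle-treated libraries were not analysed here, so time in culture and time on the inhibitor cannot be told apart, and neither can this remark and the time point.

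The thyroid follicular cell makes thyroid hormone on thyroglobulin, a large protein that is secreted into the follicle, iodinated there with the help of hydrogen peroxide, and taken up again for proteolysis. A small set of transcription factors, PAX8, NKX2-1, FOXE1, and HHEX, is present together in this cell and is needed to form and maintain it, and GLIS3 is needed for its response to thyrotropin. Thyroid carcinomas often lose parts of this program, with the iodide transporter among the parts lost, and active MAPK signaling is known to lower it.

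Total counts were between 23917056 and 27457040 per library. Of all genes, 12876 had enough counts to be tested with edgeR's quasi-likelihood test, and a gene was called higher or lower at 24 h if its log2 fold change was past 0.5 in either direction with an unadjusted P under 0.01. Benjamini-Hochberg adjusted P values over all genes tested are given below. Statements on overlap between time points compare 2 libraries with 2, a weak criterion that genes not called can also meet. The share of all genes without overlap is not given here. Libraries of the same time point had a Spearman correlation across genes of at least 0.998, and libraries of different time points of at most 0.941. Nothing in the labels says that the 2 libraries of a time point came from separate cultures. The spread between libraries behind the P values may thus be technical. edgeR estimates this spread partly from other genes, and the median total degrees of freedom was 25.8. P values, standard errors, and intervals thus rest mostly on variance pooled across genes. In RNA from a whole culture, fewer cells that express a gene and less RNA of it per cell cannot be told apart. RET itself, which BLU6864 inhibits as a protein, had 1387 and 1480 raw counts at 6 h and 1454 and 1522 at 24 h. RET had a log2 fold change of 0.01 ± 0.071 (SE, n = 2 per time point; adjusted P = 0.937). CCDC6, its fusion partner, had 59 and 72 raw counts at 6 h and 58 and 61 at 24 h (adjusted P = 0.437).

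The 10 genes fell into a group with reads and a group nearly without. PAX8, FOXE1, HHEX, GLIS3, TG, and DUOX1 had at least 38 raw counts in every library and were tested, whereas NKX2-1, TSHR, DIO2, and DUOX2 had at most 5 in any library and were not. Since each tested gene had at least 10 counts in all 4 libraries, none of them passed the filter through one time point alone. From 6 h to 24 h, GLIS3, FOXE1, and DUOX1 rose and TG fell, and PAX8 and HHEX were not called. Thus 3 of the 6 tested were called higher, where 17.4% of all genes tested were, and 1 of 6 was called lower, where 17.7% of all genes tested were. The median log2 fold change of the 6 was 0.39, and that of all genes tested was 0.0029.

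The 250 bases before the annotated start site are shown for 4 of the genes, as RefSeq gives them on GRCh38.p14, each written 5′ to 3′ on the strand of its gene. GLIS3 and FOXE1 are shown as the lineage factors that rose, PAX8 as the abundant factor that was not called, and DIO2 as a gene nearly without reads whose start carries the full cAMP response element. Capitals mark a match to one of the motifs searched, and a sequence without capitals holds none. The GLIS3 sequence is chr9:4298497-4298746 (minus strand), with TATAAA in capitals. FOXE1 is chr9:97852976-97853225 (plus strand). PAX8 is chr2:113278922-113279171 (minus strand). DIO2 is chr14:80212179-80212428 (minus strand), with TGACGTCA and TATAAA in capitals.
GLIS3: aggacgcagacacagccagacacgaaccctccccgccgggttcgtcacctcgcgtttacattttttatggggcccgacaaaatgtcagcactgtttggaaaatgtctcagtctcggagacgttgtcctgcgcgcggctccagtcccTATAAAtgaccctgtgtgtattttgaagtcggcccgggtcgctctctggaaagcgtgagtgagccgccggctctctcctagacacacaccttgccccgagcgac
FOXE1: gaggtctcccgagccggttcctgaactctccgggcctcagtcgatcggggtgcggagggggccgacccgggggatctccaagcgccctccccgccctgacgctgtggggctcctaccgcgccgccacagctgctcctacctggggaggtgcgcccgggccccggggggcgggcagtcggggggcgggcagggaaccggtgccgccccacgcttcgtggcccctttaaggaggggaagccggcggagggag
PAX8: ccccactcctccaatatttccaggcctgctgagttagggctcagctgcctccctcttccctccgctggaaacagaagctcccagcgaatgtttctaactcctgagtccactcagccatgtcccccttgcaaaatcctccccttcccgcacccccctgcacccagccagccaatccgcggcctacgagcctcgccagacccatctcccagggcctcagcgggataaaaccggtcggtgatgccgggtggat
DIO2: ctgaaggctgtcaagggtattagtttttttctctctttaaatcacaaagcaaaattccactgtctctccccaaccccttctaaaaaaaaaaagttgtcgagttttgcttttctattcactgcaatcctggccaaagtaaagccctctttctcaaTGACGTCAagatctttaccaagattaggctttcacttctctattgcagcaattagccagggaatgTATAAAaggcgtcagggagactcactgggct

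For matches, 5 motifs were searched on both strands in windows from 250 bases before to 50 bases from the start site. These were TGACGTCA, the cAMP response element through which signals of the thyrotropin receptor can reach a promoter; TGANTCA, the AP-1 site; CAAGTG, a core bound by NKX2-1; TGTTTAC, a site of forkhead factors, the class of FOXE1; and TATAAA, the TATA box. The AP-1 letters differ from those of the cAMP response element by the base between the arms, so a single place cannot match both. The table held 35116 windows of 27305 genes, with 12 windows for 9 of the 10 genes. TGACGTCA was in 1.85% of all windows, TGANTCA in 7.71%, CAAGTG in 11.5%, TGTTTAC in 3.42%, and TATAAA in 11.5%.

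Matches in the windows of the 10 genes were few. In the DIO2 sequence above, TGACGTCA starts 96 bases and TATAAA 31 bases before the start site, and the other DIO2 window held TGACTCA with its first letter at base 13 from its own. GLIS3 held TATAAA starting 104 bases before the first of its 2 start sites. The second of the NKX2-1 windows held CAAGTG starting 147 and TGTTTAC starting 130 bases before its start site, and DUOX2 held TTTATA, the reverse complement of TATAAA, starting 127 bases before. The windows of PAX8, FOXE1, HHEX, TSHR, and DUOX1 held none of these letters. FOXE1, HHEX, and DUOX1 had windows of high GC content, 76%, 80.3%, and 73%, against a median of 58.7% over all windows, whereas those of DIO2 had 48% and 42.3%. These matches describe the sequence only, and no binding was measured.

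Among the lineage factors tested, GLIS3 had the largest log2 fold change. GLIS3 (ENSG00000107249, chromosome 9, 3824127 to 4348392 on hg19) encodes a Krüppel-like zinc finger protein, and loss of it in humans causes congenital hypothyroidism with neonatal diabetes. It had 673 and 813 raw counts at 6 h against 3285 and 3835 at 24 h. The time points lay far apart, with both later libraries on the higher side. Normalized counts rose from 753 ± 37.8 to 3502 ± 325 (mean ± SD, n = 2), 4.65-fold, a log2 fold change of 2.22 ± 0.081 (SE; adjusted P = 9.59e-19). The 95% interval of the log2 fold change was 2.05 to 2.38. The rise was the 180th largest of the 12876 genes tested. The antisense gene GLIS3-AS1 shares 1.25% of the GLIS3 exon bases.

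FOXE1 (ENSG00000178919, chromosome 9, 100615536 to 100618986), a forkhead factor of a single exon that is needed for migration of the thyroid bud and for transcription of the thyroglobulin gene, rose as well. Its raw counts were 273 and 279 at 6 h and 462 and 556 at 24 h, with no overlap between the time points. The mean normalized count was 281 ± 19.1 at 6 h and 501 ± 57.1 at 24 h (SD, n = 2). This was a 1.78-fold rise, with a log2 fold change of 0.84 ± 0.11 (SE; adjusted P = 1.37e-07) and a 95% interval of 0.62 to 1.05.

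PAX8 (ENSG00000125618, chromosome 2, 113973574 to 114036527), the paired box factor that drives the thyroglobulin and iodide transporter genes, had the most reads of the 10. It had 19124 and 22978 raw counts at 6 h and 20035 and 21660 at 24 h. Its normalized counts, 20645 and 22045 at 6 h and 19961 and 21078 at 24 h, overlapped between the time points. The log2 fold change was -0.06 ± 0.080 (SE; adjusted P = 0.545), with a 95% interval of -0.22 to 0.11, so a rise or fall past the cutoff of 0.5 lay outside the interval. The antisense gene PAX8-AS1 shares 22.4% of the PAX8 exon bases, and its reads could not be separated, since the strand setting of the counting is not given in the sources used here.

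HHEX (ENSG00000152804, chromosome 10, 94447945 to 94455403), a homeobox factor of the early thyroid bud that is also used in liver and blood formation, had lower values at 24 h that did not pass the cutoffs. Raw counts were 190 and 206 at 6 h and 186 and 151 at 24 h. Normalized counts of 205 and 198 at 6 h and 185 and 147 at 24 h did not overlap, but the 24 h libraries stood further from each other than the first of them stood from 6 h. The log2 fold change was -0.28 ± 0.14 (SE; adjusted P = 0.0765), and edgeR's unadjusted P was 0.0525. It was -0.45 without the first 24 h library, with edgeR's unadjusted P of 0.00869 and an adjusted P of 0.0168 but still short of the fold cutoff, and -0.11 without the second (adjusted P = 0.552).

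NKX2-1 (ENSG00000136352, chromosome 14, 36985602 to 36990354), the homeobox factor that acts with PAX8 on the thyroglobulin gene and is also a lung factor, had 0 counts in all 4 libraries. A count of 0 allows up to 3 counts, which is 0.11 to 0.124 CPM in these libraries, counting error only. CPM is a gene's count scaled by the effective library size, the total over genes tested times its TMM factor. In GENCODE v44, 32.6% of the NKX2-1 exon bases are shared with SFTA3 on the same strand and 12.7% with the antisense gene NKX2-1-AS1, so how reads there would be assigned depends on the counting rule, which is not given in the sources used here. Its relatives NKX2-3, NKX2-4, and NKX2-6 were also at 0, whereas NKX2-5, best known from the heart, had 72 and 94 raw counts at 6 h and 119 and 124 at 24 h (log2 fold change 0.51, adjusted P = 0.00979).

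**Figure D1:**
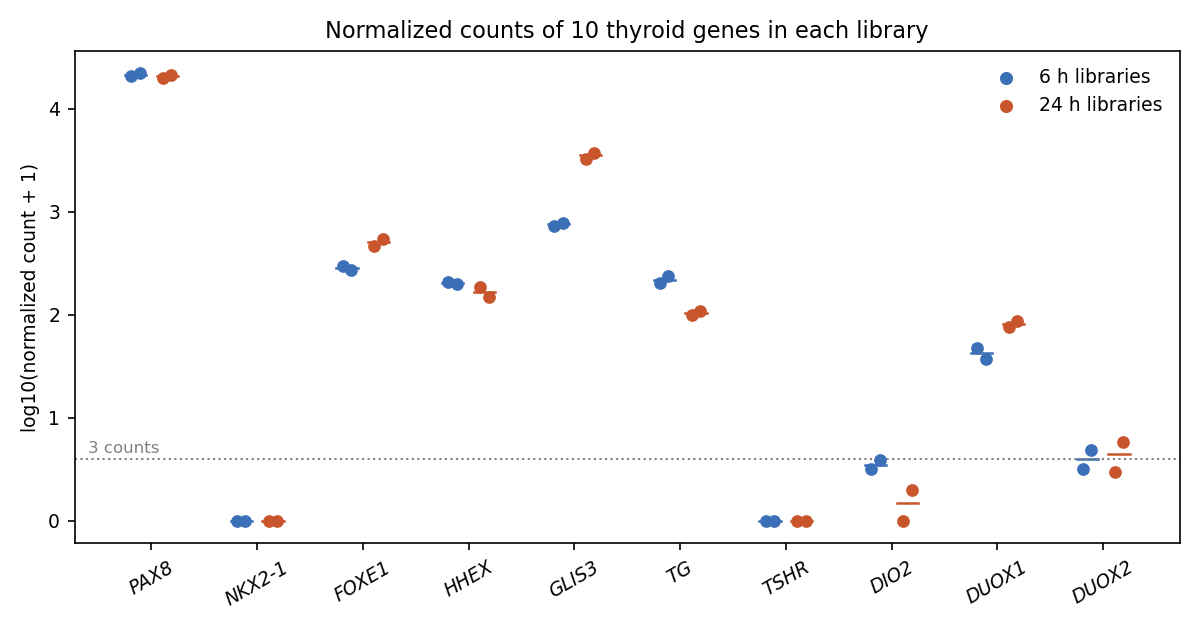
Normalized counts of the 10 genes in each of the 4 libraries, on the y axis as log10 of the normalized count plus 1, with points for libraries, short bars for the mean of a time point, and a dotted line at 3 counts. GLIS3, FOXE1, and DUOX1 lie higher and TG lower at 24 h, PAX8 lies highest at both times, and NKX2-1 and TSHR lie at 0.

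TG (ENSG00000042832, chromosome 8, 133879203 to 134147147) encodes thyroglobulin, the protein on which thyroid hormone is made and the defining product of the follicular cell. It was present at a low level and fell. Raw counts were 186 and 245 at 6 h and 98 and 111 at 24 h, and the later libraries were both lower, without overlap. The mean normalized count was 218 ± 24.2 at 6 h and 103 ± 7.34 at 24 h (SD, n = 2). The level at 24 h was 0.471 of that at 6 h, with a log2 fold change of -1.09 ± 0.14 (SE; adjusted P = 2.77e-07) and a 95% interval of -1.38 to -0.79. Thus the lineage factors GLIS3 and FOXE1 rose over the interval in which TG fell, with PAX8 not called. SLA, an adaptor gene of lymphocytes that lies within the span of TG, had 22 and 24 raw counts at 6 h and 15 and 9 at 24 h. No exon bases of TG and SLA are shared in GENCODE v44.

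TSHR (ENSG00000165409, chromosome 14, 81421333 to 81612646), the receptor through which thyrotropin raises cAMP in the follicular cell, had 0 counts in all 4 libraries. The span of CEP128, a centriole gene, overlaps that of TSHR by 4529 bases. CEP128 had 107 and 131 raw counts at 6 h and 22 and 16 at 24 h (log2 fold change -2.68, adjusted P = 1.10e-10), without any read listed on TSHR.

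DIO2 (ENSG00000211448, chromosome 14, 80663873 to 80854100), the deiodinase that converts thyroxine to the active triiodothyronine, had 2 and 3 raw counts at 6 h and 0 and 1 at 24 h. All 4 libraries were at or under 3 counts, so no fold is given, and a change was not detectable at this depth.

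DUOX1 and DUOX2 are neighboring oxidases that supply hydrogen peroxide at the apical membrane, and each lies head to head with the gene of its own maturation factor, DUOXA1 or DUOXA2. DUOX1 (ENSG00000137857, chromosome 15, 45422131 to 45457774) had 43 and 38 raw counts at 6 h and 75 and 89 at 24 h. The time points did not overlap, and the later libraries were higher, at a low level. The mean normalized count rose from 41.4 ± 7.04 to 80.7 ± 8.41 (SD, n = 2), 1.96-fold, with a log2 fold change of 0.97 ± 0.22 (SE; adjusted P = 3.18e-04) and a 95% interval of 0.53 to 1.41. DUOX2 (ENSG00000140279, chromosome 15, 45384848 to 45406542), the main thyroid oxidase, had 2 and 4 raw counts at 6 h and 2 and 5 at 24 h, and the time points overlapped. The maturation factors were near 0 as well, with 1 and 3 counts at 6 h and 7 and 1 at 24 h for DUOXA1, and 0 and 0, then 0 and 3, for DUOXA2. A noncoding gene, ENSG00000259539, shares 6.31% of the DUOX1 exon bases, and DUOX1 and DUOXA1 overlap by 6 bases.

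**Figure D2:**
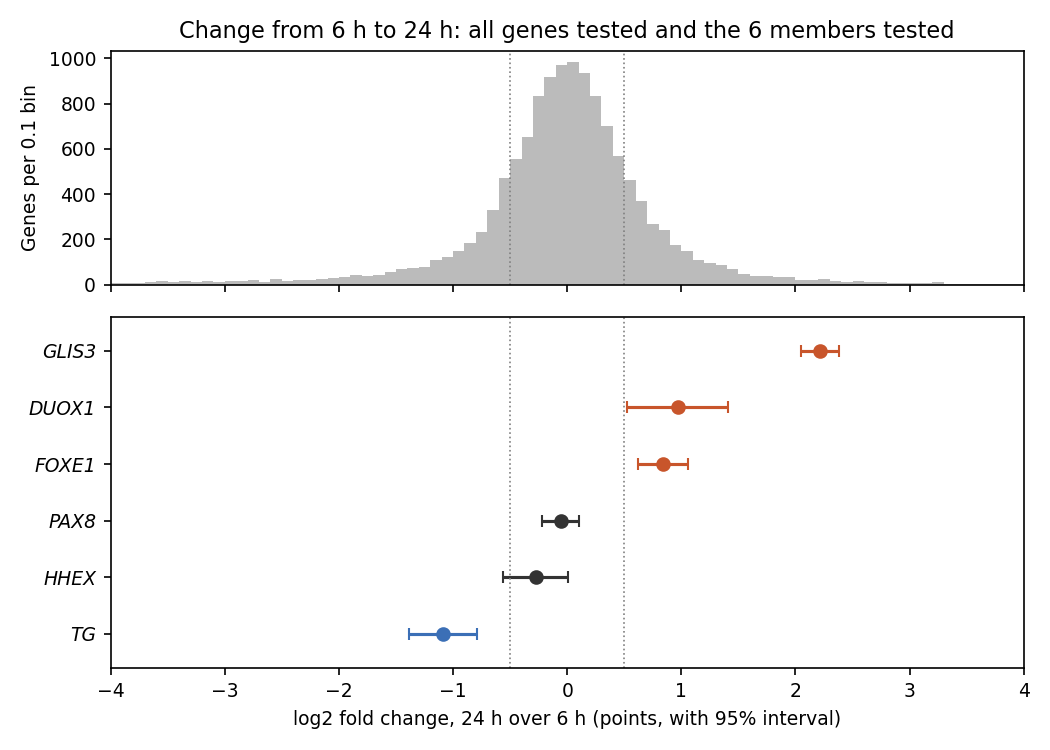
Log2 fold changes from 6 h to 24 h, as a histogram of all 12876 genes tested (top; the axis ends at 4 in each direction, and genes past its ends are not drawn) and for the 6 tested genes with their 95% intervals (bottom), with dotted lines at the cutoff of 0.5. The intervals of GLIS3, DUOX1, and FOXE1 lie to the right of the cutoff and that of TG to the left, whereas that of PAX8 lies between the lines and that of HHEX crosses the left line and 0.

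Levels can be set side by side only per length. The length used was that of all annotated exons of a gene joined, 15467 bases for GLIS3 and 3492 for FOXE1. It can exceed that of the transcript expressed, so the order of genes, and which of them meet, depend on this choice. Given as CPM divided by the kilobases of exon, PAX8 was at 110.7 ± 5.1 at 6 h and 106.4 ± 4.1 at 24 h (SD, n = 2), rank 327 and 341 of 19460 genes with an exon length. At 6 h the next were FOXE1 at 3.08 ± 0.21 and HHEX at 3.05 ± 0.08, whose libraries overlapped, followed by GLIS3 at 1.86 ± 0.093. TG was at 0.748 ± 0.083 and DUOX1 at 0.18 ± 0.031, without overlap between these neighbors. DIO2 and DUOX2 were near 0.01, with overlapping libraries.

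The order on these lengths changed by 24 h. GLIS3 moved from the fourth place to the second, at 8.66 ± 0.80 CPM per kilobase, from rank 9166 to rank 4564 of all genes. FOXE1 followed at 5.48 ± 0.63 and HHEX at 2.52 ± 0.41, and no libraries of these neighbors overlapped. TG at 0.353 ± 0.025 and DUOX1 at 0.351 ± 0.037 no longer differed beyond their spread, with library values of 0.335 and 0.371 for TG and 0.325 and 0.377 for DUOX1. The summed level of the 10 genes was 846 to 901 CPM at 6 h and 920 to 983 at 24 h, most of it PAX8.

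**Figure D3:**
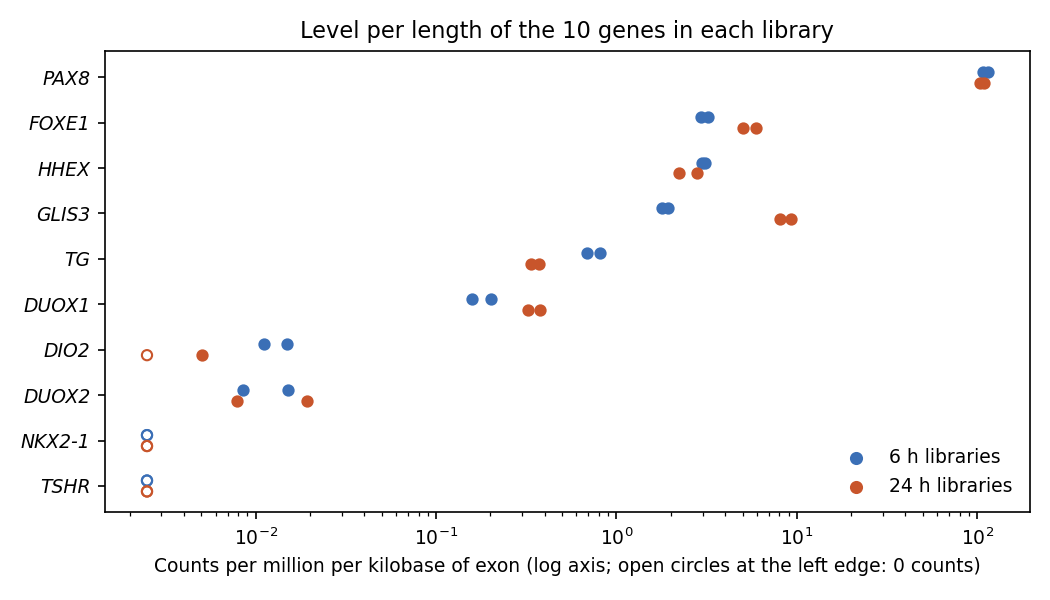
Level of each of the 10 genes in each library, as CPM per kilobase of exon on a log axis, with open circles at the left edge for libraries with 0 counts, which coincide where both libraries of a time point are at 0. PAX8 stands near 110 at both times, FOXE1, HHEX, and GLIS3 between 1 and 10, and TG and DUOX1 below 1, where their 24 h values meet.

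Of the 16 thyroid function genes that the study scores in tumors, which include all 10 except HHEX, 9 were tested, 4 were called higher, and 1 was called lower. For this and the following lists, 17.4% of all genes tested were called higher and 17.7% lower. No list was tested as a set. The rise beyond those given above was THRB, the beta receptor for thyroid hormone, with 165 and 172 raw counts at 6 h and 545 and 554 at 24 h (log2 fold change 1.66 ± 0.11, adjusted P = 2.87e-13). The alpha receptor THRA had a log2 fold change of -0.19 (adjusted P = 0.0779). The median log2 fold change of the 9 was -0.06. SLC26A4, the anion exchanger pendrin, had 36 and 41 raw counts at 6 h and 15 and 42 at 24 h, with overlapping time points. The count of genes called lower on this list was 2 without the second 24 h library, the added gene being SLC26A4.

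Among the other genes of iodide handling, hormone synthesis, and thyroglobulin turnover, 11 had too few counts to be tested, and 5 of these had none. Of 18 such genes, 7 were tested, 2 were called higher, and 2 were called lower, with a median log2 fold change of -0.48. The iodotyrosine deiodinase gene IYD had 0 counts in all 4 libraries. SLC5A5, the sodium iodide symporter, had 2 and 7 counts at 6 h and 3 and 3 at 24 h. SLC26A7, an anion transporter of the follicular cell, fell from 150 and 134 raw counts to 96 and 88 (log2 fold change -0.67 ± 0.16, adjusted P = 8.17e-04). The remaining calls were of lysosomal proteases that can cleave thyroglobulin and are used by nearly all cells. CTSD and CTSB rose, by log2 fold changes of 1.12 and 0.74, and CTSL fell by 1.29, with adjusted P values of 7.67e-12, 6.77e-08, and 2.75e-13. CTSD shares 22.9% of its exon bases with a protein-coding gene on the same strand and 23.4% with PRADX on the opposite strand.

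For thyrotropin signaling, 21 genes of the hormone subunits and of the cAMP and Gq arms from the receptor were in the table, of which 17 were tested, 3 were called higher, and 1 was called lower, with a median log2 fold change of -0.02. PRKAR1B, a regulatory subunit of protein kinase A, had 77 and 100 raw counts at 6 h and 295 and 300 at 24 h (log2 fold change 1.70, adjusted P = 2.64e-11). The adenylyl cyclases ADCY9 and ADCY3 rose by log2 fold changes of 1.07 and 1.03, and the catalytic subunit gene PRKACB fell by 0.51. ADCY3 shares 23.0% of its exon bases with CENPO on the opposite strand, whose reads could not be separated. The thyrotropin subunit genes CGA and TSHB had 0 counts.

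Of 18 genes of thyroid hormone transport and action, 15 were tested, 2 were called higher, and 2 were called lower, with a median of 0.10. THRB, given above, was among those that rose. CRYM, which encodes a protein that binds triiodothyronine in the cytosol, had 87 and 108 raw counts at 6 h and 5 and 9 at 24 h (log2 fold change -3.82 ± 0.30, adjusted P = 1.94e-11). KLF9, a transcription factor induced by thyroid hormone in many tissues, fell from 965 and 964 raw counts to 540 and 612 (log2 fold change -0.79, adjusted P = 1.19e-08).

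Of 25 relatives of the 10 genes in the same gene families, 9 were tested, 3 were called higher, and 2 were called lower, with a median of 0.23. PAX2, of the same subgroup as PAX8, had 327 and 367 raw counts at 6 h and 933 and 1137 at 24 h (log2 fold change 1.53 ± 0.096, adjusted P = 1.40e-13), whereas PAX6 fell by 0.92. GLIS2 rose by a log2 fold change of 0.59, beside 2.22 for GLIS3. PAX6 shares 25.4% of its exon bases with ELP4 and GLIS2 23.5% with a noncoding gene, both on the opposite strand. Reads of these neighbors could not be separated. NOX5, an oxidase of the wider family of DUOX1 and DUOX2, had 35806 and 39776 raw counts at 6 h and 3490 and 3327 at 24 h. NOX5 thus had a log2 fold change of -3.52 ± 0.088 (SE; adjusted P = 2.51e-22). The value of NOX5 is uncertain, since 72.1% of its exon bases are shared with another entry of the same name in GENCODE v44.

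Of 11 other genes known from thyroid development, 6 were tested, 2 were called higher, and 1 was called lower, with a median of 0.29. JAG1, a Notch ligand linked to thyroid defects, rose from 217 and 243 raw counts to 872 and 1046 (log2 fold change 2.01 ± 0.10, adjusted P = 1.22e-15). WWTR1, which encodes the coactivator TAZ, a partner of PAX8 and NKX2-1, rose by 0.92, and EYA1 fell by 0.86.

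**Figure D4:**
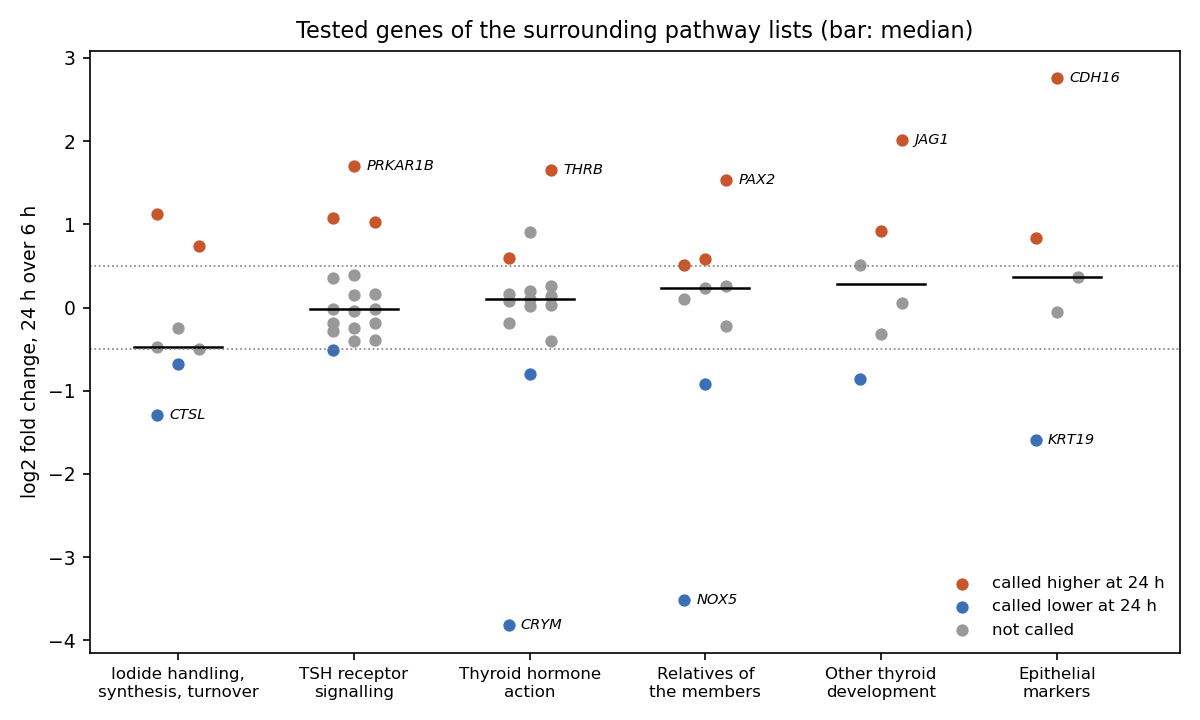
Log2 fold change from 6 h to 24 h of each tested gene (points) on 6 lists of surrounding genes (x axis), with a bar at the median of each list and dotted lines at the cutoff of 0.5. Medians lie between -0.48 and 0.37. CDH16, JAG1, PRKAR1B, THRB, and PAX2 lie far above and CRYM, NOX5, and KRT19 far below them.

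Against the markers of the follicular cell, the libraries held PAX8, FOXE1, HHEX, and TG but no reads of NKX2-1 or TSHR and at most 7 of SLC5A5, so the label of a thyroid cancer line was met by part of the marker set. Of 7 epithelial markers 5 were tested, 2 were called higher, and 1 was called lower. The summed level of the 7 went from between 123 and 128 CPM at 6 h to between 185 and 190 at 24 h. CDH16, a cadherin of kidney and thyroid epithelium, rose from 207 and 249 raw counts to 1497 and 1685 (log2 fold change 2.76, adjusted P = 1.68e-19), which made up most of the higher sum. KRT8, with 1724 and 1807 raw counts at 6 h and 1720 and 1811 at 24 h, was not called (log2 fold change -0.05, adjusted P = 0.569). KRT7 rose by 0.84, KRT19 fell by 1.59, and EPCAM had 11 and 6 counts at 6 h and 1 and 1 at 24 h. CDH1 had 8 and 3 counts at 6 h and 1 and 3 at 24 h.

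Markers of other cells were low, except for 2 lists. The 3 parathyroid markers were at 0, and the 7 C cell markers summed to at most 1.53 and the 5 kidney markers to at most 2.97 CPM, without a call, CALCA, UMOD, and AQP2 being at 0. The 7 lung markers summed to 0.55 to 0.66 at 6 h and 1.93 to 2.67 at 24 h, with SFTPA1 and SFTPD at 0. SCGB1A1 was the 1 gene called, at 7 and 8 counts and then 63 and 47 (log2 fold change 2.81). It shares 16.4% of its exon bases with a noncoding gene on the opposite strand, whose reads could not be separated. The 7 fibroblast markers summed to 23.4 to 24.1 at 6 h and 9.79 to 11.2 at 24 h, where COL1A1 fell by 1.57 and PDGFRB by 1.48, LUM rose by 0.75, and COL1A2 and COL3A1 were at 0. The 5 white blood cell markers summed to 176 to 184 at 6 h and 99 to 102 at 24 h, nearly all of it CD68, which fell by 0.84 and shares 81.6% of its exon bases with another gene, while PTPRC had at most 5 counts. The part of these cell types in the changes of the 10 genes was not tested.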

How the data were processed

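RNA sequencing libraries of TPC1 cells on BLU6864 came from 6 h (2 libraries) and 24 h (2 libraries). Per the processing notes, the authors aligned the reads with STAR 2.3 to hg19 and compared the time points with DESeq2. The counting program and its strand setting are not given in the sources used here. The authors deposited the raw count of reads per gene, without normalization, and a normalized signal, that count over the size factor of its library. The deposited comparison columns hold log2 fold changes, their standard errors, Wald scores, and p-values (raw and adjusted), none of which was used. The number of unmapped columns with values per sample was 0.

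Raw counts were tested in R 4.3.3 with edgeR 4.0.16 (filterByExpr, TMM, quasi-likelihood test, time as the single factor), with standard errors derived from the F statistic. The filter kept 12876 of 20372 genes, with 99.97% of all reads counted. No read was counted for 4039 genes. For normalized counts, raw counts were scaled to the mean effective (TMM) library size. The cutoffs are those of the methods, taken in both directions. Adjusted P values are over all genes tested. Exon lengths and shared exon bases are from GENCODE v44, matched by Ensembl identifier, and gene positions are those of the table on hg19. Promoters are from RefSeq. Intervals are at 95%.

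The 10 genes and the lists of other genes were chosen with earlier results of these data known. Named genes are all 10, list genes past the cutoffs (at most the 4 with the largest changes in each direction), SLC5A5, IYD, DUOXA1, DUOXA2, genes overlapping one of the 10, RET, and CCDC6. Other list genes given with values, such as THRA, SLC26A4, EPCAM, and genes at 0, were chosen after their values were seen. The results of some single genes under this rule are not reported here. Procedures were tested on simulated data. Alternatives were DESeq2 1.42.0, scaling by upper quartile or by library size alone, no filter or at least 10 counts in each library, a replicate block, an adjusted P under 0.05 with no fold cutoff, and each library left out. Python 3.11.15 and matplotlib 3.10.9 were used for the plots.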

Additional observations from a re-analysis of the deposited data

How the results depend on the processing

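The 6 tested genes kept their direction and their call (higher, lower, or not called) under the 11 alternatives. The call was by fold and P together, except in the alternative without a fold cutoff. That alternative applied the adjusted P alone to the fit described above and to no other fit. The log2 fold change ranged from 2.12 to 2.31 for GLIS3, 0.72 to 0.95 for FOXE1, 0.79 to 1.14 for DUOX1, -1.19 to -0.97 for TG, -0.10 to -0.01 for PAX8, and -0.45 to -0.11 for HHEX. DUOX1 had an adjusted P of 0.0161 with DESeq2. The numbers of all genes called were 4247 higher and 4196 lower with an adjusted P under 0.05 and no fold cutoff, against 2238 and 2278. The median of the 6 genes was 0.35 with library size alone and 0.42 with upper quartile scaling, against 0.39. With each library left out in turn, this median ranged from 0.315 to 0.472, and the number of thyroid function genes called lower ranged from 1 to 2. Such fits leave 1 library in an arm, which is assumed to vary like the others.

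Libraries of the 2 time points share replicate numbers, and the labels do not say whether same-numbered libraries were paired. The correlation of their deviations was 0.0757, which cannot decide this with 2 libraries per time point. With a replicate block, 2283 genes were called higher and 2313 lower, and 3 and 1 of the 10 genes. HHEX stayed uncalled by the fold cutoff alone without the first 24 h library, where its unadjusted P was 0.00869 and its adjusted P 0.0168. Its adjusted P was 0.0439 with the replicate block and 0.0452 with library size alone, and between 0.0765 and 0.552 under the others. With 2 libraries per time point, outliers could not be tested. DIO2 and DUOX2 had too few counts for a change to be detectable, and without a filter edgeR gave them an unadjusted P of 0.19 and 0.86.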
